A study of Mus musculus with 2 samples.

Results

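The Ifit genes encode interferon-induced proteins with tetratricopeptide repeats, and mice carry them as a cluster of 6 genes on chromosome 19: Ifit1, Ifit1bl1, Ifit1bl2, Ifit2, Ifit3 and Ifit3b. All 6 were taken by gene symbol from the 55487 genes of the count table, and no other symbol of the Ifit series was present. The cluster was chosen by its counts in these same libraries, LPS+LCC-12 against LPS, so its lower counts with LCC-12 are described below and not tested.

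The RNA came from small peritoneal macrophages, a macrophage type of the abdominal cavity, sorted from male mice of the outbred SWISS stock aged 5 weeks. The LPS+LCC-12 group was 1 library from 66967 pooled cells of 8 mice, and the LPS group was 1 library from 102283 pooled cells of 7 mice. All mice received 20 mg/kg of lipopolysaccharide (LPS, from Escherichia coli O55:B5) into the peritoneum, 30 mL/kg of saline under the skin 6 h later, and were killed at 22 h. The LPS+LCC-12 mice also received 0.3 mg/kg of LCC-12, a compound known to target copper in mitochondria, into the peritoneum 6 h after LPS. Mice without LPS were not analysed here, so induction by LPS itself cannot be read from these data. The counts summed to 47721888 with LPS+LCC-12 and 50618409 with LPS. With 1 pool per group there was no replicate, so every difference is between 2 libraries, variation between mice was not measured, and intervals cover counting error only.

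Ifit genes are among the most strongly induced targets of type I interferon. Interferon binding to its receptor (Ifnar1 and Ifnar2) activates the kinases Jak1 and Tyk2, and Stat2 and Irf9 then act at the interferon-stimulated response element in promoters. In macrophages LPS also starts this circuit through Tlr4, the adaptor Ticam1 and Irf3, which leads to interferon beta. The Ifit1 protein binds RNA whose cap lacks methylation typical of the cell's own mRNA and blocks its translation, Ifit2 restricts RNA viruses in mice, and human IFIT3 binds and stabilizes IFIT1.

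The cluster spans 99.3 kb, from 34550694 to 34650009 on chromosome 19 (GRCm38, the mm10 build). In order along the chromosome, Ifit2 lies at 34550694 to 34576419, Ifit3 at 34583531 to 34588731, Ifit1bl1 at 34592891 to 34601956, Ifit3b at 34607970 to 34613401, Ifit1bl2 at 34617049 to 34640743 and Ifit1 at 34640871 to 34650009. Ifit1bl1 and Ifit1bl2 are on the minus strand and the other 4 are on the plus strand. Ifit1bl2 and Ifit1 start head to head with 127 bases between them. All are annotated as protein-coding. Ifit3 and Ifit3b were near-identical copies: 1198 of 1209 coding bases were the same (99.1%). Ifit1bl1 and Ifit1bl2 shared 87.4% of aligned coding bases, Ifit1 shared 73.4% and 73.5% with these, and Ifit1, Ifit2 and Ifit3 shared between 50.9% and 55.7% with each other.

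The stretches upstream of the annotated starts are shown because 5 of the 6 hold the core letters of the interferon-stimulated response element. The motif searched was GAAANNGAAA, which reads TTTCNNTTTC on the other strand, in windows of 250 bases before to 50 bases after each start from RefSeq (GRCm38.p6). Both strands were searched, and no other motif was. Of 32851 windows of this length, 1131 held it (3.44%) and 74 held 2 or more copies (0.225%). Counted by gene, 1079 of 27025 held it in at least 1 window (3.99%), and 72 held 2 or more copies in a window (0.266%). All 6 members had a window. Ifit3 and Ifit3b held 2 copies each, Ifit1 and Ifit1bl2 held the same 2 copies in the stretch between their starts (a second Ifit1bl2 window held 0), and Ifit1bl1 held 1 in each of its windows. No copy lay in either window of Ifit2, which says only that these letters are not there. In the sequences below, written 5′ to 3′ on the strand of the named gene (the strand of Ifit1 for the shared stretch), capitals mark the motif. The Ifit3 stretch is chr19:34583329-34583528, Ifit3b chr19:34607757-34607956, Ifit1bl1 chr19:34601969-34602168 on the minus strand, Ifit2 chr19:34550494-34550693, and the stretch between Ifit1bl2 and Ifit1 chr19:34640744-34640870.
Ifit3: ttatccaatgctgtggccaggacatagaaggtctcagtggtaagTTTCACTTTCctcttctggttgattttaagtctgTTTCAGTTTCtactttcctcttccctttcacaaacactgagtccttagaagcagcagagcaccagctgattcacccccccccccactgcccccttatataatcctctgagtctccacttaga
Ifit3b: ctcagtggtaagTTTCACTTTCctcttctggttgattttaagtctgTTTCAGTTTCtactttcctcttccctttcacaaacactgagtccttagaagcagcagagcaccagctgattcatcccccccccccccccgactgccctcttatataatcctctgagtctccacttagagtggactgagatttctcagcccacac
Ifit1bl1: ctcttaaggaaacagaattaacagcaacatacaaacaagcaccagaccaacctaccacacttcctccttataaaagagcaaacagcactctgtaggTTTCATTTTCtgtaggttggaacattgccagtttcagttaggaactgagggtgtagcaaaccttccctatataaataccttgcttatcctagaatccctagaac
Ifit1 and Ifit1bl2: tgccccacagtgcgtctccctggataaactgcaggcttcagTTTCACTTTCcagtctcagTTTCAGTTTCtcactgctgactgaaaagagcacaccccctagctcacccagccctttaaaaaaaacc
Ifit2: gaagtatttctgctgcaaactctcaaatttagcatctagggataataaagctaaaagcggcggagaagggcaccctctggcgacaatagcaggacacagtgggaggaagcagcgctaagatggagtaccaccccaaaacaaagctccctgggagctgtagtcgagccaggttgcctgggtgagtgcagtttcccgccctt

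The Ifit3 motifs begin 156 and 122 bases before its RefSeq start, and the same letters in Ifit3b begin 188 and 154 bases before its RefSeq start. Over the 250 bases before both starts, 216 of 224 aligned positions were identical in Ifit3 and Ifit3b (96.4%). The Ifit1 motifs begin 104 and 85 bases before its RefSeq start, which lies inside the gene bounds given above. The forms TTTCACTTTC and TTTCAGTTTC are both found in Ifit3, Ifit3b and Ifit1, and in the stretch that Ifit1 shares with Ifit1bl2.

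All 6 Ifit genes had lower counts in the LPS+LCC-12 library, by 4.68-fold to 10.9-fold after scaling. Summed over the cluster, 4378 counts were present with LPS+LCC-12 and 30781 with LPS. These were 0.00917% of all counts with LPS+LCC-12 (exact binomial 95% interval 0.00890 to 0.00945) and 0.0608% with LPS (0.0601 to 0.0615). The log2 ratio of the summed counts, LPS+LCC-12 over LPS, was -2.77 (exact 95% interval -2.81 to -2.72), or 6.81-fold lower with LCC-12. The ratio used counts scaled by TMM, which sets the bulk of genes equal between libraries, with 0.5 counts added. All 6 members were past a limit of 2-fold, as were 6.65% of the 13482 genes with at least 50 counts in either library; 4.01% were past 2-fold on the higher side. All 6 were also past 1.5-fold, 3-fold and 4-fold, as were 13.3%, 2.52% and 1.36% of genes, and all 6 had their whole interval past 2-fold, as had 3.86%. The cluster was chosen on this contrast, so nothing is read from these counts. In bulk RNA of sorted cells, fewer cells that express a gene and less of its RNA per cell cannot be told apart.

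Ifit1, which recognizes RNA by its cap, had 1794 counts with LPS+LCC-12 and 8674 with LPS. Its log2 ratio was -2.23 (-2.30 to -2.15), the smallest difference of the cluster, and its counting interval did not overlap that of any other member. Ifit1 had the most counts of the cluster in both libraries.

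Ifit2 had 1013 counts with LPS+LCC-12 and 8169 with LPS, a log2 ratio of -2.96 (-3.06 to -2.87). The member without the motif in its upstream windows was thus 7.81-fold lower, within the range of the members that hold it. No 100-base window of its transcript matched a transcript of another gene, so it had no such stretch to share reads over.

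Ifit3, the partner of Ifit1 in human cells, had 647 counts with LPS+LCC-12 and 7275 with LPS, a log2 ratio of -3.44 (-3.56 to -3.33). Its copy Ifit3b had 591 counts with LPS+LCC-12 and 4326 with LPS, a log2 ratio of -2.82 (-2.95 to -2.70). Ifit3 had the largest difference of the cluster, 10.9-fold, and the intervals of the pair did not overlap. Of the 100-base windows of their transcripts, 521 were found in both, which is 31.7% of the Ifit3 windows and 27.4% of the Ifit3b windows. How reads from these stretches were counted is not given in the sources used here, so the split between the copies is uncertain, and the pair is better read as a sum. Together they had 1238 counts with LPS+LCC-12 and 11601 with LPS, a log2 ratio of -3.18 (-3.27 to -3.10).

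Ifit1bl1 and Ifit1bl2 are relatives of Ifit1 by sequence. Ifit1bl2 had 297 counts with LPS+LCC-12 and 2032 with LPS, a log2 ratio of -2.73 (-2.91 to -2.55). Ifit1bl1 had 36 counts with LPS+LCC-12 and 305 with LPS, a log2 ratio of -3.02 with a wide interval (-3.58 to -2.54) that overlapped those of all members but Ifit1. Ifit1bl1 was the least abundant member in both libraries. Few 100-base windows were shared among these genes: 3.29% of the Ifit1 windows with Ifit1bl2, and 0.524% of the Ifit1bl1 windows with Ifit1bl2. Ifit1 and Ifit1bl2 flank the same 127 bases, and their log2 ratios of -2.23 and -2.73 had counting intervals that did not overlap.

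**Figure D1:**
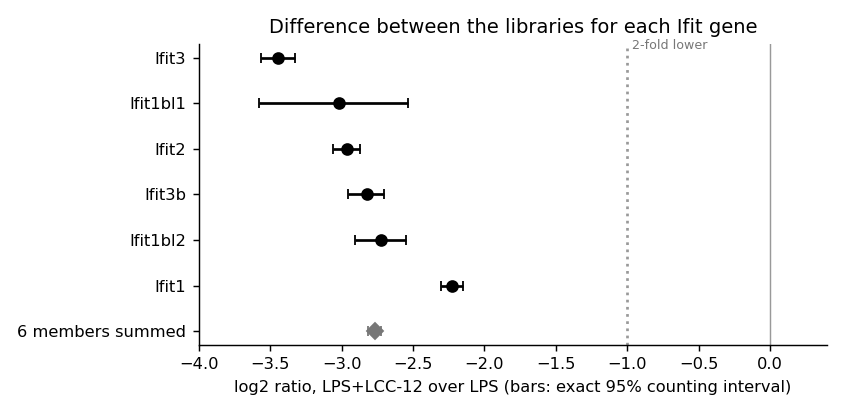
Log2 ratio of LPS+LCC-12 over LPS for each Ifit gene (circles) and for the summed counts of the 6 genes (diamond), with exact 95% counting intervals as bars; 1 library per group. All 6 lie left of the dotted line at 2-fold lower, from -3.44 for Ifit3 to -2.23 for Ifit1.

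Of the 15 pairs of members, 7 had overlapping intervals and 8 did not, and 5 of those 8 involved Ifit1. The intervals of Ifit2, Ifit3b, Ifit1bl2 and Ifit1bl1 all overlapped one another, with log2 ratios from -3.02 to -2.73. Overlap does not show that their ratios were equal, and differences between them were not tested. In the order of all 13482 genes from the lowest log2 ratio, Ifit3 stood at 25, Ifit1bl1 at 41, Ifit2 at 44, Ifit3b at 54, Ifit1bl2 at 61 and Ifit1 at 127.

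Per length, Ifit3 and Ifit1 were the leading members. Levels and ranks of Ifit3 and Ifit3b rest on the uncertain split of reads between the copies, and so does the order of Ifit3 and Ifit1. Levels between genes were set per kilobase of annotated exon and by scaled library size (RPKM, computed here from the counts), with exact Poisson intervals. With LPS+LCC-12, Ifit1 had the highest level at 14.0 RPKM (13.3 to 14.6), and Ifit3 followed at 7.67 RPKM (7.09 to 8.28). With LPS the order of these genes was the other way round, with 83.5 RPKM for Ifit3 (81.6 to 85.4) and 65.4 RPKM for Ifit1 (64.0 to 66.8). Ifit3b had 6.11 RPKM with LPS+LCC-12 and 43.3 RPKM with LPS. Ifit2 had 5.33 RPKM with LPS+LCC-12 and 41.7 RPKM with LPS. The intervals of Ifit3b and Ifit2 overlapped in both libraries. Ifit1bl2, at 1.82 RPKM with LPS+LCC-12 and 12.1 RPKM with LPS, and Ifit1bl1, at 0.329 RPKM with LPS+LCC-12 and 2.70 RPKM with LPS, came last in both. Among the 13482 genes ordered by RPKM from the highest, Ifit3 stood at 4929 with LPS+LCC-12 and at 461 with LPS. Ifit1 stood at 3053 with LPS+LCC-12 and at 610 with LPS. Both genes thus stood lower in the order in the LPS+LCC-12 library than in the LPS library.

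**Figure D2:**
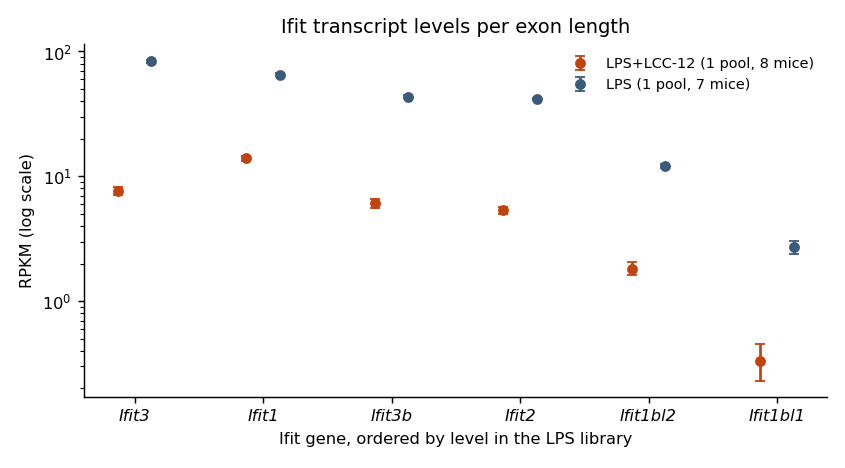
Level of each Ifit gene as RPKM on a log scale in the LPS+LCC-12 library (orange, left of each pair) and the LPS library (blue), with exact 95% Poisson intervals as bars. Ifit1 leads with LPS+LCC-12 at 14.0 RPKM and Ifit3 leads with LPS at 83.5 RPKM. The split of reads between Ifit3 and Ifit3b is uncertain.

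The make-up of the cluster's counts differed between the libraries mainly in Ifit1 and Ifit3. Ifit1 held 41.0% of the Ifit counts with LPS+LCC-12 and 28.2% with LPS. Ifit3 held 14.8% with LPS+LCC-12 and 23.6% with LPS. Ifit2 held 23.1% with LPS+LCC-12 and 26.5% with LPS. The shares of the others were close in both libraries: Ifit3b had 13.5% with LPS+LCC-12 and 14.1% with LPS, Ifit1bl2 6.78% and 6.60%, and Ifit1bl1 0.822% and 0.991%, in the same order of libraries. These shares do not depend on the scaling, but those of Ifit3 and Ifit3b rest on the uncertain split of reads between the copies.

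**Figure D3:**
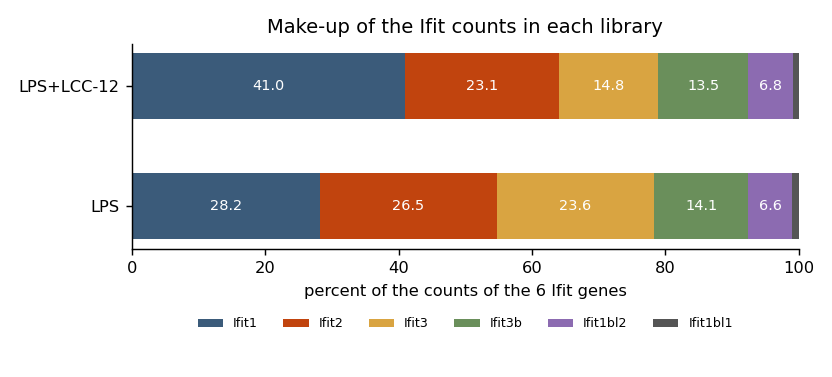
Percent of the counts of the 6 Ifit genes that each gene held, in the LPS+LCC-12 library (upper bar) and the LPS library (lower bar). The Ifit1 segment is 41.0% with LPS+LCC-12 and 28.2% with LPS, and the Ifit3 segment 14.8% and 23.6%. The split of reads between Ifit3 and Ifit3b is uncertain.

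The nearest genes on either side of the cluster did not share its low ratios where they could be read. Within 200 kb on either side, or inside it, 14 other genes are annotated, 9 of them with 0 counts in both libraries. Of the 3 with at least 50 counts in either library, none was 2-fold lower. Lipa, lysosomal acid lipase, which ends 23.2 kb before Ifit2, had 6131 counts with LPS+LCC-12 and 4546 with LPS, a log2 ratio of 0.48 (0.42 to 0.53). Ch25h, which makes 25-hydroxycholesterol and is itself known as an interferon target, had 63 counts with LPS+LCC-12 and 86 with LPS, a log2 ratio of -0.40 (-0.90 to 0.08), and its interval held 0. Pank1, a pantothenate kinase 157 kb beyond Ifit1, had 74 counts with LPS+LCC-12 and 46 with LPS (log2 ratio 0.73, 0.18 to 1.30). Slc16a12, the next gene beyond Ifit1, had 0 counts in both libraries (Poisson interval up to 3.69 in each). AC016791.2, a pseudogene inside the bounds of Ifit1bl2 on the other strand, had 0 counts with LPS+LCC-12 and 4 with LPS.

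**Figure D4:**
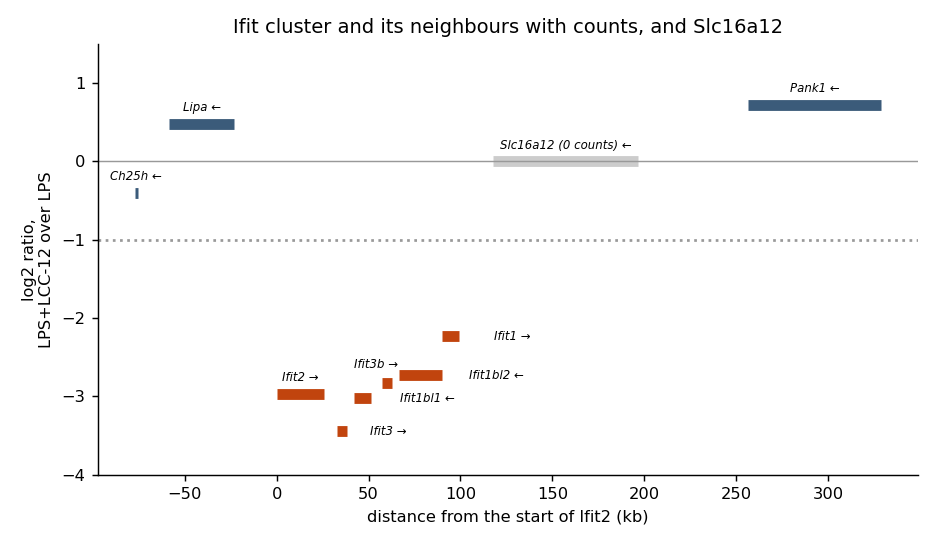
Log2 ratio of LPS+LCC-12 over LPS by distance from the start of Ifit2, for the 6 Ifit genes (orange), the 3 neighbours with at least 50 counts in either library (blue) and Slc16a12 (grey, 0 counts, drawn at 0). Bars span each gene and arrows give its strand; the Ifit genes lie between -3.44 and -2.23, and Lipa and Pank1 lie above 0.

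Other antiviral effectors of the interferon response were also lower with LCC-12, most of them by less than the Ifit genes. Of 45 listed effectors, 44 reached 50 counts in either library, and Ifi44l had 0 in both. Of the 44, 24 were lower by 2-fold or more, 0 were higher by as much, and 42 had a log2 ratio below 0. Over all genes with at least 50 counts, 6.65% were lower and 4.01% higher by as much. The 44 effectors had a median log2 ratio of -1.01, against 0.02 over all genes. A total of 3 had a lower ratio than Ifit1: Ifi44, Cxcl11 and Rsad2. Rsad2, viperin, had 3989 counts with LPS+LCC-12 and 23422 with LPS (log2 ratio -2.51, -2.56 to -2.46). Ifi44 had 10 counts with LPS+LCC-12 and 81 with LPS (-2.91, -4.09 to -2.02), and Cxcl11, a chemokine for Cxcr3, had 20 with LPS+LCC-12 and 127 with LPS (-2.59, -3.38 to -1.93). Mx2 followed with 504 counts with LPS+LCC-12 and 2413 with LPS (-2.21, -2.35 to -2.07), and Isg15, a ubiquitin-like modifier, had 1029 with LPS+LCC-12 and 3695 with LPS (-1.80, -1.90 to -1.70). The Ifit genes had 1.68 counts for every 100 counts of these effectors with LPS+LCC-12 and 6.10 with LPS. The cluster was chosen on these libraries, so nothing is read from this difference.

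No interferon gene reached 50 counts: of 21 listed, 19 had 0 counts in both libraries, Ifng included. Summed, the 21 had 0 counts with LPS+LCC-12 and 6 with LPS, of which 5 were from Ifnb1 and 1 from Ifnl2. The interval of the summed log2 ratio lay below 0, with its upper end at -0.19. Without the 1 count of Ifnl2 it would hold 0, so no difference is read from this sum. Ifnb1, interferon beta, had 0 counts with LPS+LCC-12 (Poisson interval up to 3.69) and 5 with LPS (1.62 to 11.7), and the interval of the log2 ratio of this gene alone held 0. Of 18 receptor and signalling genes, 2 were lower by 2-fold or more and 0 higher, with a median log2 ratio of -0.34. Over all genes with at least 50 counts, 6.65% were lower and 4.01% higher by as much, so nothing is read from these 2 genes. Ifnlr1, a receptor chain for interferon lambda, had 677 counts with LPS+LCC-12 and 1742 with LPS (log2 ratio -1.32). Irf7, which amplifies interferon production, had 10324 with LPS+LCC-12 and 23746 with LPS (-1.16). Stat2 and Irf9, which act at Ifit promoters, had log2 ratios of -0.99 (-1.04 to -0.94) and -0.65 (-0.70 to -0.60). The receptor genes Ifnar1 and Ifnar2 had 0.03 (-0.01 to 0.07) and -0.46 (-0.53 to -0.40). The Ifnar1 interval held 0, and none of the other 3 intervals did.

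Of 10 negative regulators, 2 were lower by 2-fold or more and 0 higher. Over all genes with at least 50 counts, 6.65% were lower and 4.01% higher by as much. Counts of 2 or 3 genes in a list are not read as a result. Usp18, which detaches Isg15 and blocks the receptor, had 1149 counts with LPS+LCC-12 and 5576 with LPS, a log2 ratio of -2.23 (-2.33 to -2.14), next to that of Ifit1. Socs1, an inhibitor of Jak kinases, had 463 with LPS+LCC-12 and 1770 with LPS (-1.89, -2.04 to -1.74). The median of these 10 genes was -0.34. Of 19 genes for sensing nucleic acids and LPS, 3 were lower by 2-fold or more: Ddx58 (RIG-I) and Ifih1 (MDA5), which sense viral RNA, at -1.40 and -1.21, and Tlr9, which senses DNA, at -1.20. None was higher by that much, and the median was -0.39. Of 17 interferon-inducible GTPases, which act on vacuoles that hold pathogens, 16 reached 50 counts, of which 7 were lower by 2-fold or more and 0 higher, with a median of -0.90. The 4 with the largest differences were Gbp10, Gbp9, Gbp4 and Gbp5, at -2.04, -1.90, -1.77 and -1.11.

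Genes of cap methylation and of translation initiation were taken as the machinery on which Ifit1 acts. Of 20 such genes none was past 2-fold in either direction, 2 had a log2 ratio below 0, and the median was 0.17. Cmtr1, which adds the cap methylation that shields mRNA from Ifit1 and is an interferon target itself, had the lowest ratio, with 612 counts with LPS+LCC-12 and 931 with LPS (log2 ratio -0.56, -0.71 to -0.41). The initiation factor genes Eif3a and Eif4a1, which had the most counts over both libraries, were at 0.18 and 0.17.

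**Figure D5:**
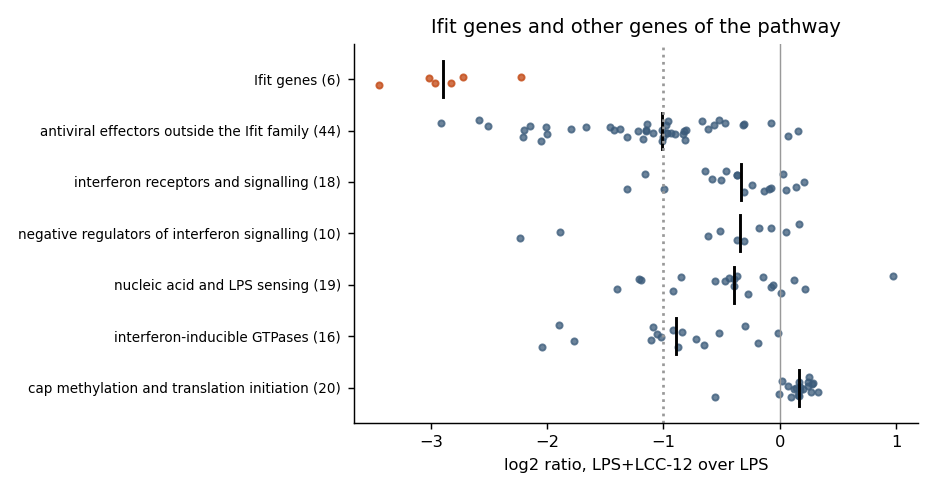
Log2 ratio of LPS+LCC-12 over LPS for the Ifit genes (orange) and for genes of 6 pathway lists (blue) with at least 50 counts in either library; black bars are medians, the dotted line is 2-fold lower, and each point is 1 gene. Numbers in brackets count the genes drawn. The Ifit genes lie at the low end, the effectors have a median of -1.01 and the cap and translation genes 0.17.

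The genes whose log2 ratio came nearest to that of the summed cluster, over 2 libraries and taking genes that reached 500 counts in either, were Steap4, Dnah8, Ifi208, Bcl2l15 and Il18r1. Their log2 ratios were -2.73, -2.84, -2.66, -2.66 and -2.54. Ifi208 belongs to the interferon-inducible Ifi200 family, Steap4 encodes a metalloreductase and Il18r1 a chain of the interleukin 18 receptor. A ratio between 2 libraries is a single value per gene, and nothing more of their likeness was measured.

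Markers of other cells that a sort could hold also differed between the libraries. Over all genes with at least 50 counts in either library, 6.65% were at least 2-fold lower and 4.01% at least 2-fold higher. None of the markers listed for small peritoneal macrophages was at 0 in both libraries; summed, they had 90433 counts with LPS+LCC-12 and 52218 with LPS, with 10 of 14 at least 2-fold higher. General macrophage markers, 11 genes all within 2-fold, had 501063 counts with LPS+LCC-12 and 478085 with LPS. Of these, Lyz2 alone had 218056 with LPS+LCC-12 and 152290 with LPS, so the sums rest largely on this gene. A log2 ratio below 0 was seen for 6 of the 11 genes. Per 100 general macrophage marker counts, the Ifit genes had 0.874 counts with LPS+LCC-12 and 6.44 with LPS. Neutrophil markers had 179759 counts with LPS+LCC-12 and 497036 with LPS, with 9 of 13 at least 2-fold lower and none at 0 in both. Monocyte markers had 197279 counts with LPS+LCC-12 and 313647 with LPS, with 5 of 10 at least 2-fold lower. Per 100 neutrophil marker counts the Ifit genes had 2.44 counts with LPS+LCC-12 and 6.19 with LPS, and per 100 monocyte marker counts 2.22 and 9.81 in the same order. Per 100 mast cell marker counts the Ifit genes had 133 counts with LPS+LCC-12 and 290 with LPS, a log2 difference of -1.12. Most counts of the mast cell list came from 1 gene, Hdc, with 3013 counts with LPS+LCC-12 and 9855 with LPS. That value is thus mainly a comparison with Hdc. Per count of fibroblast markers the log2 difference was -1.47, and per count of mesothelial markers it was -0.20; these lists had few counts, 298 and 66 with LPS+LCC-12 and 757 and 404 with LPS. Set against markers of small peritoneal macrophages, large peritoneal macrophages, and B and plasma cells, it was larger, at -3.61, -3.47 and -3.01. The log2 difference in Ifit counts was thus below 0 against each marker list named here, and its size varied with the list. The value close to 0 against the mesothelial list rests on few counts. Among markers with at least 50 counts in either library, 1 neutrophil, 2 mesothelial and 2 fibroblast markers had a log2 ratio below that of Ifit1. The neutrophil marker was Mmp8, named after its value was seen, at -2.31. Scaled to the neutrophil markers, a setting chosen after the data were seen, the summed Ifit log2 ratio was -1.35, and Ifit1 at -0.81 was then within 2-fold. Which cells in the pools the Ifit counts came from, and the part of other cells in the difference, was not tested.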

How the data were processed

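Small peritoneal macrophages pooled from 8 (LPS+LCC-12) or 7 (LPS) mice gave 1 library per group. Stranded libraries were made from 10 ng of total RNA after ribosomal depletion, with 12 cycles of PCR and paired reads of 100 bp, per the labels' protocols. The authors deposited whole-number counts for each gene, with no normalization. Per the submitters' processing notes, STAR and mm10 were used. The sources used here do not give the counter, its strand setting or its annotation, so overlapping genes on opposite strands and shared stretches are uncertain.

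Gene IDs were matched to GENCODE M21 (55394 of 55487) for symbols, positions and exon lengths. TMM factors came from edgeR 4.0.16 (R 4.3.3), and scaled counts had 0.5 counts added in proportion to library size. With 1 library per group no test was made. Intervals on ratios are exact (Clopper-Pearson, 95%) from the split of counts, and cover counting error only. They treat counts as independent, and PCR copies are not independent molecules, so the intervals may be too narrow even for counting error. A count of 0 has an upper bound of 3.69 counts. Genes that reached 50 counts in either library were counted as lower or higher past 2-fold. Ratios and intervals were checked on simulated counts that held Poisson counting error only, which is what the intervals assume. The check therefore says nothing of variation between mice or of PCR copies. Coding sequences were aligned with Biopython 1.88, and 100-base windows were matched against all GENCODE M21 transcripts. Promoter windows are from RefSeq (GRCm38.p6). Reference sequences are not from SWISS mice.

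The members and lists were chosen with earlier results of these data known. Named genes were all members, neighbours within 200 kb with 50 or more counts, up to 4 genes per list with the largest differences past 2-fold or else the 2 with the most counts, a fixed set of pathway genes (among them Ifnb1, Ifng, Ifnar1, Stat2, Usp18, Isg15 and Cmtr1), and the 5 genes of nearest ratio with 500 or more counts, predicted genes left out; 1 gene of this rule is not reported here. Slc16a12 and AC016791.2 were added after their values were seen. Alternatives were other scalings (DESeq2 1.42.0 among them), added counts, count minimums, size limits, thinning and members left out.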

Additional observations from a re-analysis of the deposited data

How the results depend on the processing

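All 6 Ifit genes had log2 ratios below 0 under each of 9 settings, 54 values from -3.56 to -0.81. Of these, 40 stayed within the counting interval of the reported value and 14 moved. The summed log2 ratio of -2.77 was -2.71 when the totals used for scaling left out mitochondrial genes and the 100 most abundant ones, -2.88 by general macrophage markers, and -2.56 without Ifit3 and Ifit3b. It was -1.35 by neutrophil and -2.14 by monocyte markers, both chosen after seeing the data; these scalings put the median of all genes at 1.44 and 0.65. The count of members at least 2-fold lower was 6, except 5 by neutrophil markers (Ifit1 at -0.81) and 5 of 5 with Ifit3 and Ifit3b as 1 gene. Over all genes, 896 lower and 540 higher became 6439 and 4143 with a minimum of 1 count, 2387 and 1462 with 10, 438 and 298 with 200, 1794 and 1304 at 1.5-fold, 340 and 195 at 3-fold, and 521 and 299 with the whole interval beyond 2-fold. Of protein-coding genes, 500 were lower and 428 higher. The 24 effectors became 11 at 3-fold, and their median of -1.01 became -1.13 by macrophage markers and -1.18 as a mean. The count minimum and size limit set how many genes are counted; the cause of the other shifts was not tested. No paired analysis was possible because each group has 1 library and no test was made. No replicate could be left out. Depth limits Ifit1bl1 (36 and 305 counts, LPS+LCC-12 and LPS), Ch25h, Pank1 and the interferon genes.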

Other observations

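Marker lists not given in full above were also read beside the Ifit genes. Over all genes with at least 50 counts in either library, 6.65% were at least 2-fold lower and 4.01% at least 2-fold higher. Large peritoneal macrophage markers had 107289 counts with LPS+LCC-12 and 67943 with LPS, with 9 of 15 at least 2-fold higher. Mast cell markers had 3281 counts with LPS+LCC-12 and 10631 with LPS, most of them from Hdc, with 5 of 6 readable genes at least 2-fold lower. Mesothelial markers had 66 with LPS+LCC-12 and 404 with LPS, with 4 of 4 lower, and fibroblast markers had 298 and 757 in that order, with 3 of 5 lower and Lum at 0 in both. Their part in the Ifit difference was not tested. Markers of B and plasma cells had 11656 counts with LPS+LCC-12 and 10201 with LPS, with 8 of 8 within 2-fold. Dendritic cell markers had 649 with LPS+LCC-12 and 630 with LPS, with 1 of 6 higher and none lower. T and NK cell markers had 172 with LPS+LCC-12 and 295 with LPS, with 1 of 2 lower. Of the markers of plasmacytoid dendritic cells, a main source of type I interferon, 3 of 7 (with Bst2, which is also an interferon target) reached 50 counts and were within 2-fold, Klk1 had 0 in both libraries, and Siglech, which defines them, had 12 counts with LPS+LCC-12 and 0 with LPS.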
